A study of Mus musculus with 6 samples.

Results

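The 9 genes described here encode membrane proteins that brain endothelial cells use to move molecules across the blood-brain barrier, and they were taken as a given list from the 32285 genes of a single-cell count table. The list holds the efflux pumps Abcb1a and Abcg2, the organic anion carrier Slco1a4, the lipid carrier Mfsd2a, the amino acid carriers Slc7a1, Slc7a5 and Slc38a5, the glucose carrier Slc2a1 and the transferrin receptor Tfrc. All 9 had UMIs in the table (a UMI, or unique molecular identifier, stands for 1 captured transcript). The cells came from the striatum of wild-type male C57BL/6 mice, 3 libraries at postnatal day 3 (P3) and 3 libraries at 3 months (3m). Astrocytes had been enriched with magnetic beads through their surface antigen ACSA2, and cells were read out by 10x 3′ single-cell RNA-Seq. Endothelial cells were therefore cells carried along in an astrocyte preparation, and their number says nothing of their number in the striatum. Each library was a preparation of its own, and by the study's methods a preparation pooled the tissue of several animals. The question asked here is how the transcripts of these transporters differ between the endothelial cells of the newborn and the adult striatum, and which other cells hold them.

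Brain capillaries differ from those of other organs in that their endothelial cells are sealed by tight junctions, so nutrients have to be carried through the cell by transporters and many drugs and waste products are pumped back into the blood. Solute carriers of the Slc and Slco families take up sugars, amino acids, lipids and organic anions, ABC pumps use ATP to expel compounds, and receptors such as the transferrin receptor carry proteins by endocytosis. In the mouse the barrier forms before birth, while vessels still grow and endothelial cells still divide in the first weeks after birth.

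Promoter sequences of 4 of the genes are shown because these genes took different courses with age: Slco1a4 rose and Slc38a5 fell in endothelial cells, while Mfsd2a (lower in endothelial cells at 3m) and Slc2a1 (higher there) both rose in astroglia. Each window runs from 250 bases before to 50 after a start site (RefSeq, GRCm38.p6), 5′ to 3′ on the gene's strand, and capitals mark matches on either strand to the motifs searched.
Slco1a4, chr6:141856171-141856470, minus strand: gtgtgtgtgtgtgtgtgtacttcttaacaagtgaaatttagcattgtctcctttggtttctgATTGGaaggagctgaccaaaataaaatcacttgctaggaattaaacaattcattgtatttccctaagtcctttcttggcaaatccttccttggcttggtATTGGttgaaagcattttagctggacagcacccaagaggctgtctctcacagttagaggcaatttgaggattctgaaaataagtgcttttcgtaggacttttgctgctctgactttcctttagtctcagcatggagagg
Slc38a5, chrX:8271131-8271430, plus strand: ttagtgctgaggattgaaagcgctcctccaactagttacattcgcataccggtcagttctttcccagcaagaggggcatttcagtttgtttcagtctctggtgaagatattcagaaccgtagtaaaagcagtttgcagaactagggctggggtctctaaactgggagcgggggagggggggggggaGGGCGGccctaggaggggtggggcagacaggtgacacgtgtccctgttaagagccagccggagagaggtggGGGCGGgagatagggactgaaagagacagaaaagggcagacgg
Mfsd2a, chr4:122961139-122961438, minus strand: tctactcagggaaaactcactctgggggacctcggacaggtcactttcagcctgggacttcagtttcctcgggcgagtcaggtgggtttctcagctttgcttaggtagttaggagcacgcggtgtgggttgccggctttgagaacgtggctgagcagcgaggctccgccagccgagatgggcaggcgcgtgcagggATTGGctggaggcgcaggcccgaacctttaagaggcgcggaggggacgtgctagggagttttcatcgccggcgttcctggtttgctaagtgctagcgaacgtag
Slc2a1, chr4:119108495-119108794, plus strand: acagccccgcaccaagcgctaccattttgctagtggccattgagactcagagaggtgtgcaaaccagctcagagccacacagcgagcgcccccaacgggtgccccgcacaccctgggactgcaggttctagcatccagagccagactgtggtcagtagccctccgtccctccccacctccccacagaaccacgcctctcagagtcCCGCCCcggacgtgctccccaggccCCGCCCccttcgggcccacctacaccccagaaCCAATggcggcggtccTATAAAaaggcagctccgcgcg
The Slco1a4 window had 1 CG dinucleotide and a GC content of 40.7%, against 22 and 60.3% for Mfsd2a, 10 and 56.0% for Slc38a5 and 18 and 65.3% for Slc2a1. Over 32851 mouse promoter windows of this length the medians were 7 CG dinucleotides and 52.7%. The motifs searched were the CCAAT box (CCAAT, in 37.4% of all windows), the GC box (GGGCGG, 35.7%), the TATA box (TATAAA, 13.6%), AP-1 (TGAGTCA, 5.20%), TCF/LEF (CTTTGAA, 5.14%), the amino acid response motif of ATF4 (TGATGNAA, 3.97%), ETS (CCGGAAGT, 3.89%), FOX (TGTTTAC, 3.65%) and SOX (AACAATGG, 1.05%). Slco1a4 held 2 CCAAT boxes and Mfsd2a held 1. Slc38a5 held 2 GC boxes, and Slc2a1 held 2 GC boxes, 1 CCAAT box and 1 TATA box. No matches overlapped in these 4 windows, and a match describes only their letters. Windows were found for 8 of the 9 genes, with none for Slc7a5.

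The transcript of Tfrc carries a sequence feature of another kind. In its 3′ untranslated region (GENCODE M21, GRCm38) a search for iron-responsive elements, hairpins to which iron regulatory proteins bind, found 4 matches on the plus strand. The search asked for a C, 5 bases, CAGTG with 1 further base, and 5 bases able to pair with the first 5 (G-T pairs allowed), and capitals mark the loop bases CAGTG.
Tfrc element 1, chr16:32631225-32631241: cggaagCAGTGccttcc
Tfrc element 2, chr16:32631604-32631620: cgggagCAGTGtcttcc
Tfrc element 3, chr16:32631669-32631685: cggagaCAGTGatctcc
Tfrc element 4, chr16:32631716-32631732: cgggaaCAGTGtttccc
They are shown because Tfrc was read together with other genes of iron handling.

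The authors had named 4 clusters END, and the endothelial cells compared here were those of all but END_12. At 3m they lay in cluster END_17, with 59, 47 and 57 cells in replicates 1, 2 and 3. At P3 they lay in END_7 and END_13, with 215, 187 and 542 cells together. All 10 endothelial markers (among them Cldn5, Pecam1 and Cdh5) had UMIs in every library of these clusters. END_12, of which 346 of 349 cells came from P3 replicate 3, had 5 haemoglobin or erythroid genes among its 10 leading genes and no endothelial marker, so it was left out and the clusters are compared by number. END_13 was shallow, with a median of 0.25 times the median UMIs of its own libraries, and END_7 was deep, with 3.82 times. Neither had an endothelial marker among its 10 leading genes, and END_17 had 1. Slc38a5 was among the 10 leading genes of END_7 and Gkn3 of END_17. Since the clusters were built from all genes and split by age (2 cells of END_13 were from 3m and 1 of END_17 from P3), cluster and age cannot be told apart. Whole libraries held 5471573 to 10522151 UMIs at 3m and 32193875 to 37795021 at P3, and the endothelial sums 256977 to 562163 and 4332133 to 7988083. Among kept cells 28 cell barcodes occurred in 2 or more libraries, and 0 of them were endothelial.

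All 9 transporters differed with age in the endothelial clusters, and none had overlapping libraries. The efflux pumps Abcb1a and Abcg2, Slco1a4 and Slc2a1 rose to 3m, while Mfsd2a, Slc38a5, Slc7a5, Slc7a1 and Tfrc fell. Genes were called at an adjusted p up to 0.05 (edgeR's quasi-likelihood test on UMIs summed per library, Benjamini-Hochberg adjustment) if they also changed by 1 or more on the log2 scale. By this rule 11.4% of the 10359 genes tested in endothelial clusters were higher at 3m and 10.7% were lower, 22.1% in all. Levels below are CPM, a gene's UMIs divided by all UMIs of the endothelial sum of a library and multiplied by 1000000, log2 fold changes are 3m over P3 with an approximate standard error, and n is 3 libraries at each age.

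**Figure D1:**
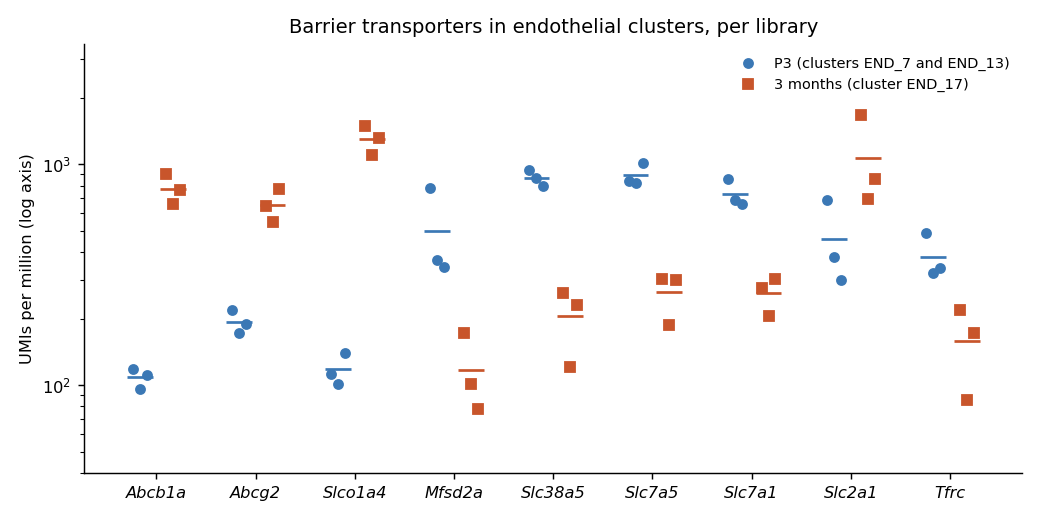
CPM (log axis) of the 9 transporters in the endothelial clusters, with a point per library (P3 circles, 3m squares) and a line at the mean of 3 libraries. For each gene the 3 libraries of an age lie on one side of all 3 of the other, with the 3m libraries above for Abcb1a, Abcg2, Slco1a4 and Slc2a1 and below for the other 5.

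Abcb1a encodes P-glycoprotein, the pump that keeps many drugs out of the brain. It lies on chromosome 5 (8660077 to 8748575, plus strand, GRCm38), where its exons overlap those of Gm42686 on the other strand. Its level was 902, 662 and 762 CPM in the 3m libraries and 118, 96.3 and 111 CPM in the P3 libraries. The lowest 3m library thus stood far above the highest P3 library, and the log2 fold change was 2.75 ± 0.19 (adjusted p = 4.70e-09). Abcg2, the breast cancer resistance protein and the second major pump of the luminal membrane, lies on chromosome 6 (58584523 to 58695676, plus strand). It had 646, 545 and 769 CPM at 3m against 218, 172 and 188 CPM at P3, a log2 fold change of 1.67 ± 0.19 (adjusted p = 2.22e-06). In the shallow cluster END_13 every transporter of the list had a lower mean than in END_7, so this was not particular to the pumps. The means were 71.4 ± 18.6 against 110 ± 11.7 CPM for Abcb1a and 120 ± 6.74 against 196 ± 22.7 CPM for Abcg2 (mean ± SD, n = 3). For Abcb1a the END_13 values rest on 3, 12 and 41 UMIs, and in P3 replicate 2 the clusters were close (91.4 against 96.4 CPM).

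Slco1a4 and Mfsd2a, which carry organic anions and lysolipids, moved in opposite directions. Slco1a4 (Oatp1a4, chromosome 6, 141805440 to 141856199, minus strand), an uptake carrier for bile acids, steroid conjugates and some drugs, showed the largest change of the 9 genes. Its 3m libraries had 1482, 1105 and 1309 CPM and its P3 libraries 113, 101 and 139 CPM. The log2 fold change was 3.37 ± 0.22 (adjusted p = 1.83e-09), and 152 of the 10359 genes tested, Slco1a4 included, had a value as high or higher. Mfsd2a (chromosome 4, 122946850 to 122961188, minus strand) takes up lysophosphatidylcholine that carries docosahexaenoic acid and is known to hold transcytosis in brain endothelium low. It had 173, 101 and 77.9 CPM at 3m and 781, 367 and 343 CPM at P3. In both ages replicate 1 was the highest library, and the log2 fold change was -2.12 ± 0.30 (adjusted p = 3.13e-05).

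The amino acid carriers fell together, 3 of 3, beside 10.7% of all genes tested that were called lower. Slc38a5 (SNAT5, chromosome X, 8271133 to 8280179, plus strand), which carries glutamine and other neutral amino acids with sodium, had 261, 121 and 231 CPM at 3m and 941, 861 and 794 CPM at P3. This is a log2 fold change of -2.14 ± 0.24 (adjusted p = 1.67e-06). Slc7a5 (chromosome 8, 121881150 to 121907694, minus strand) is LAT1, the light chain of the exchanger that brings large neutral amino acids and L-DOPA into the brain. It had 302, 187 and 299 CPM at 3m and 837, 824 and 1013 CPM at P3, and the log2 fold change was -1.84 ± 0.22 (adjusted p = 4.23e-06). Slc7a1 (CAT-1, chromosome 5, 148327410 to 148399904, minus strand), the carrier of arginine and lysine, had 276, 206 and 302 CPM at 3m and 855, 689 and 663 CPM at P3, with a log2 fold change of -1.57 ± 0.20 (adjusted p = 9.31e-06). The summed level of the 3 genes was 514 to 840 CPM at 3m and 2374 to 2633 CPM at P3.

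Slc2a1 (GLUT1, chromosome 4, 119108711 to 119137983, plus strand) brings glucose from blood to brain, and its exons overlap those of Gm12868 on the other strand. It had 1661, 693 and 859 CPM at 3m and 690, 381 and 300 CPM at P3, so the lowest 3m library lay just above the highest P3 library. Its log2 fold change was 1.16 ± 0.30 (adjusted p = 0.00634). This was the least stable call of the 9. Without 3m replicate 1 the value was 0.65 (adjusted p = 0.0969), without P3 replicate 3 it was 0.95, and without P3 cells that had UMIs of 2 or more proliferation genes it was 0.96, each short of the call.

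Tfrc (chromosome 16, 32608920 to 32632794, plus strand) binds iron-loaded transferrin at the blood side of the endothelial cell. Its level was 219, 85.6 and 173 CPM at 3m and 485, 320 and 337 CPM at P3, a log2 fold change of -1.29 ± 0.25 (adjusted p = 0.000548). Without one library at a time, the change of Tfrc ranged from -1.63 to -1.08 and each value was still called.

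Several other features of the cells moved with age beside these levels, and their part in the results was not tested. The 10 endothelial markers summed to 13850 to 20023 CPM in END_17 and to 6063 to 7868 CPM in the P3 sums. Of them, 5 of 10 were called higher at 3m with none lower, while over all genes tested 11.4% were called higher and 10.7% lower. The 10 mural markers, all detected, summed to 7032 to 7793 CPM at 3m and 2528 to 4187 CPM at P3, and the 6 erythroid markers to 19189 to 42671 CPM at 3m and 9529 to 26096 CPM at P3. The 6 oligodendrocyte markers summed to 119 to 650 CPM at 3m and 1.27 to 3.23 CPM at P3, and the 6 microglia markers to 7.78 to 24.3 CPM and 0.376 to 0.693 CPM. The astrocyte markers Aqp4, Slc1a3 and 6 others summed to 269 to 1039 CPM at 3m and 438 to 643 CPM at P3. The 9 proliferation genes fell in 9 of 9 cases, from 590 to 875 CPM at P3 to at most 3.89 CPM at 3m, where 6 of them had no UMI. When cells with UMIs of 2 or more mural, microglial or erythroid markers were left out, 21 to 22 cells per 3m library and 16 to 140 per P3 library were left, and all 9 transporters were still called in the same direction. This filter removed deep cells above all. The P3 medians fell from 26122, 20982 and 4968 UMIs per cell to 1411, 5025 and 1549.5. Oligodendrocyte and astrocyte markers were not part of it. All 9 were likewise called in the same direction when END_7 stood alone for P3 and when END_12 was added.

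The share of cells with a UMI gave the same order of the ages at equal depth. Each cell was thinned to 1000 UMIs, which kept all 163 cells of 3m and 203 of 215, 187 of 187 and 453 of 542 cells of P3. Slco1a4 was then found in 68.0% ± 9.22 of the 3m cells and 11.4% ± 1.23 of the P3 cells (mean ± SD of 3 libraries), and Abcb1a in 52.8% ± 7.45 and 10.2% ± 2.07. In the opposite direction, Slc38a5 was found in 13.03% ± 2.52 of the 3m cells and 52.4% ± 3.24 of the P3 cells, and Slc7a5 in 25.3% ± 6.56 and 54.4% ± 4.63. The libraries of the ages did not overlap for 8 genes, which gives the smallest p of the two-sided exact permutation test, 0.1, so this design cannot reach 0.05. For Slc2a1 the shares were 60.4% ± 15.4 and 36.9% ± 14.2, and the ages overlapped (exact permutation p = 0.2). In astroglia, thinned the same way, Slco1a4 and Abcb1a had a UMI in 0% of 3m cells in every library, and in a mean of 0.130% and 0.0203% of P3 cells. For Slco1a4 the P3 libraries had 0.0507%, 0.0651% and 0.274%. The source of these few UMIs was not tested. Before thinning the median depth was 4258 to 8307 UMIs per endothelial cell and 2977 to 5326 per astroglial cell at 3m, and 4968 to 26122 and 5456 to 9665 at P3.

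Across all cells the 9 genes fell into those held almost entirely by endothelial clusters and those shared with other cells. At both ages END_7, END_13 and END_17 together held 97.9% to 99.6% of the UMIs of Slco1a4, Abcb1a and Slc38a5 (means of 3 libraries), and 93.0% at 3m and 95.1% at P3 of those of Slc7a1. END_12 held a mean of at most 0.964% of any of the 9 genes at P3. For Mfsd2a the endothelial share was 81.6% ± 6.65 at P3 and 17.1% ± 6.77 at 3m, where astroglia held 70.3% ± 9.44. For Tfrc it was 80.1% ± 5.70 at P3 and 29.4% ± 16.0 at 3m, and for Slc2a1 78.1% ± 9.19 and 50.7% ± 16.5. These shares also depend on how many cells of each kind a preparation held, since oligodendrocytes made up a large class at 3m and had no cells at P3, and fewer cells of a type and less RNA per cell cannot be told apart in them.

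**Figure D2:**
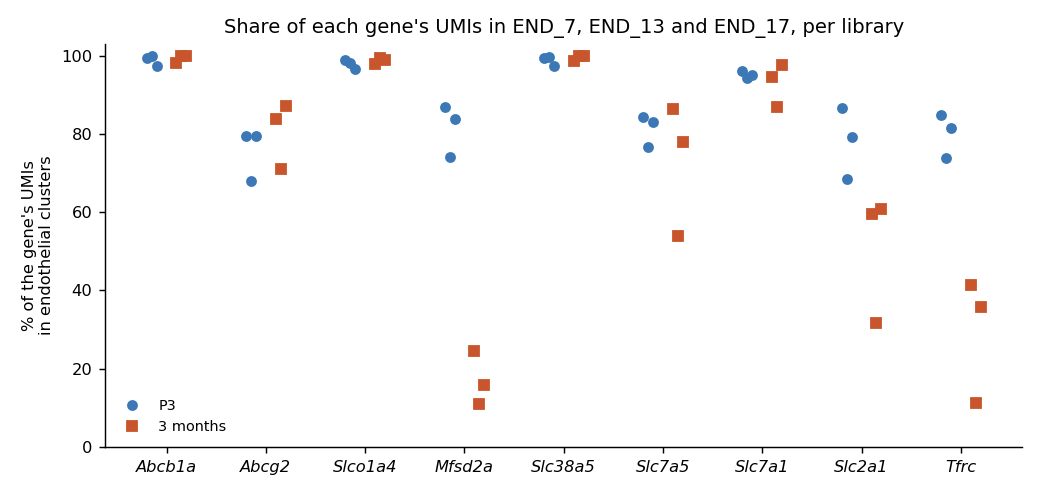
Percent of each gene's UMIs that lay in END_7, END_13 and END_17, with a point per library (P3 circles, 3m squares). Slco1a4, Abcb1a and Slc38a5 stay near 100% at both ages, while Mfsd2a drops from 81.6% to 17.1%.

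**Figure D3:**
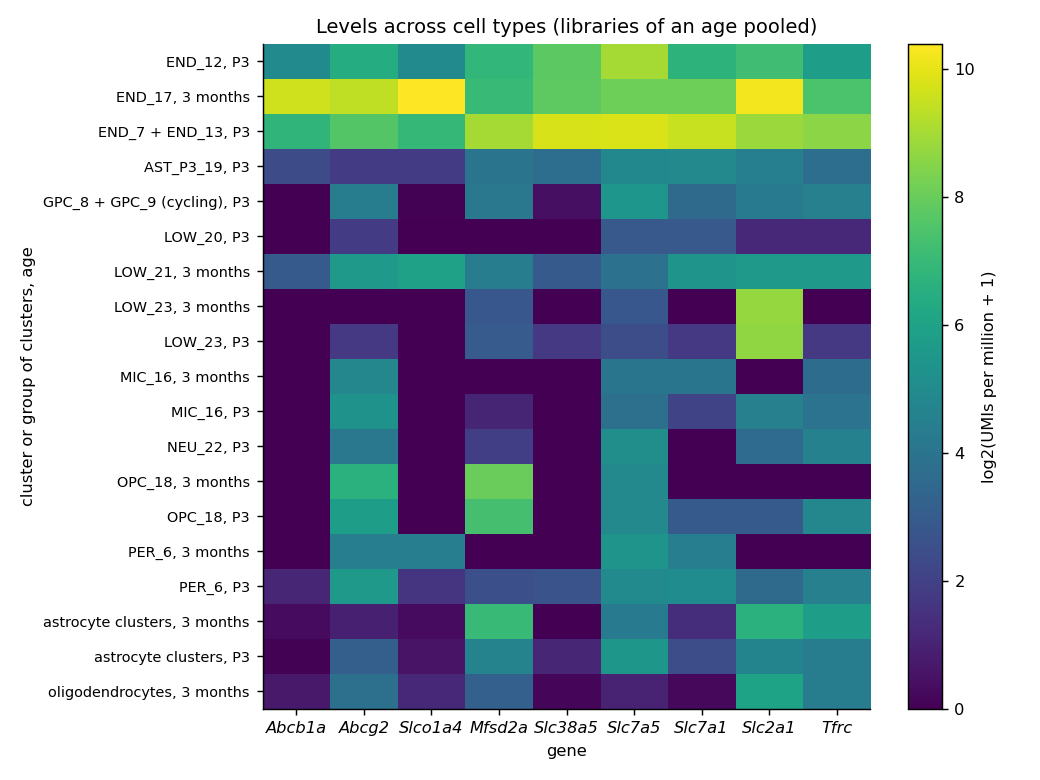
Level of each transporter as log2(CPM + 1) over clusters or groups of clusters (rows) by age, from the UMIs of all libraries of an age, for groups of at least 10 cells. The END rows are brightest for most genes, and Mfsd2a in OPC_18 and Slc2a1 in LOW_23 are bright outside them.

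Outside endothelial clusters, several genes had levels of their own. Mfsd2a reached 158 CPM at P3 (94 UMIs in 94 cells) in OPC_18, the cluster named for oligodendrocyte precursors, and 127 CPM in 3m astrocytes. At 3m OPC_18 had 256 CPM (18 UMIs in 13 cells), with 440, 124 and 0 CPM in the libraries and 104 CPM without replicate 1. Slc2a1 had 433 CPM at 3m (14 cells of 1 library) and 407 CPM at P3 (31 cells) in LOW_23, a cluster whose leading genes include Tmem212 and Ccdc153 and of which 27 of the 31 P3 cells came from replicate 2, without which the P3 value was 61.5 CPM. It also had 65.1 CPM in oligodendrocytes, which were present only at 3m in these data. Abcg2 was found at P3 in PER_6 (47.8 CPM), whose leading genes were smooth muscle genes such as Acta2, Tagln and Myh11, in MIC_16, the cluster named for microglia (38.9 CPM at P3 and 27.4 CPM at 3m), and in OPC_18 (53.8 CPM at P3). Slco1a4, Abcb1a and Slc38a5 had 0 UMIs in MIC_16 and OPC_18 at both ages, which at P3 allows up to 3.33 CPM in MIC_16 and 5.04 CPM in OPC_18 (3 UMIs over the group, counting error only). Among these clusters and the endothelial ones, Abcg2 had at P3, in falling order, 196 ± 22.7 CPM in END_7, 120 ± 6.74 in END_13, 54.7 ± 6.09 in OPC_18, 45.7 ± 14.2 in PER_6 and 39.5 ± 10.6 in MIC_16 (mean ± SD of 3 libraries). The libraries of PER_6 overlapped those of both its neighbours, while those of OPC_18 (48.4 to 60.6 CPM) lay above those of MIC_16 (27.3 to 46.3 CPM).

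Astroglia were the most numerous cells at P3 and came after oligodendrocytes at 3m, and 6 of the 9 genes could be tested in them. There, 15.8% of 13530 genes were higher at 3m and 16.3% lower (32.1% in all). Mfsd2a rose from 35.8, 16.4 and 17.9 CPM at P3 to 204, 96.0 and 105 CPM at 3m, a log2 fold change of 2.70 ± 0.32 (adjusted p = 1.55e-05 in edgeR's quasi-likelihood test). Slc2a1 rose from 31.8, 18.5 and 22.0 CPM to 170, 68.9 and 76.7 CPM (2.29 ± 0.30). Tfrc rose from 24.3, 15.1 and 22.1 CPM to 50.1, 60.2 and 55.7 CPM (1.64 ± 0.19). None of these 3 genes had overlapping libraries. In the other direction Abcg2 fell from 12.5, 9.34 and 10.2 CPM to 0, 0.542 and 2.04 CPM (-3.37 ± 0.53), which rests on 4 UMIs at 3m. Slc7a1 fell from 7.03, 4.64 and 8.26 CPM to 0.864, 2.17 and 1.36 CPM (-1.88 ± 0.47), and Slc7a5 from 46.9, 33.3 and 54.2 CPM to 13.8, 17.9 and 21.1 CPM (-1.13 ± 0.22). The call of Slc7a5 was lost without P3 replicate 3 (-0.96). Slco1a4, Abcb1a and Slc38a5 were not tested in astroglia, where they had 1, 1 and 0 UMIs at 3m and 30, 8 and 88 at P3.

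The change with age was then compared between the cell types within libraries, by an interaction term with library as a block. Of 12799 genes tested, 8.02% were called with a higher change in endothelial cells and 7.38% with a lower one (15.4% in all). Mfsd2a differed most clearly, with a log2 difference (endothelial minus astroglial) of -4.96 ± 0.19 (adjusted p = 2.17e-12). Abcg2 differed the other way, by 4.94 ± 0.42 (adjusted p = 8.04e-08). Tfrc differed by -3.03 ± 0.27 (adjusted p = 1.56e-07), falling in endothelial cells and rising in astroglia. Slc2a1 rose in both and more in astroglia, by -1.19 ± 0.21 (adjusted p = 0.000347), although with no scaling beyond library totals the value was -0.83 and no longer called. Of the 6 genes tested in both cell types, 1 was thus called higher and 3 lower. For Slc7a5 (-0.83 ± 0.28, adjusted p = 0.0427) and Slc7a1 (0.18 ± 0.58) the difference was not called, and without 3m replicate 1 that of Slc7a5 was called at -1.09. No difference is read for Slco1a4, Abcb1a and Slc38a5, whose few astroglial UMIs allow no change to be measured there. The fit gave 3.81 ± 1.09 (called), 1.45 ± 1.95 and 3.84 ± 5.73 for them. With no scaling, the median difference over all genes moved from 0.03 to 0.38 and the share of called genes that were higher in endothelial cells from 52.1% to 76.1%.

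**Figure D4:**
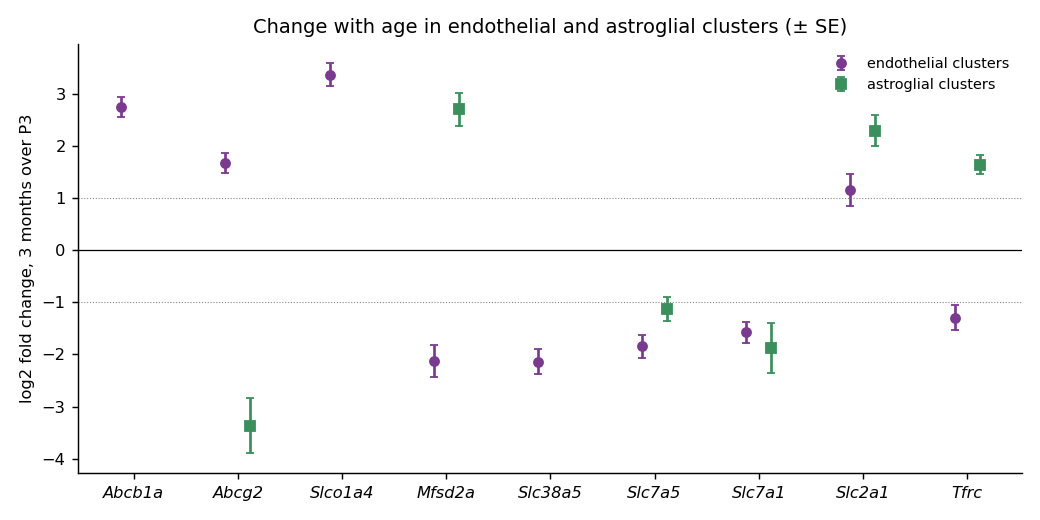
Log2 fold change of 3m over P3 with its approximate standard error in endothelial (circles) and astroglial clusters (squares), with dotted lines at 1 and -1. Mfsd2a and Tfrc lie below 0 in endothelial clusters and above 0 in astroglia, Abcg2 lies the other way round, and Slco1a4, Abcb1a and Slc38a5 were not tested in astroglia.

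Other genes of the barrier in the endothelial clusters were read from lists, each beside the background of 11.4% higher and 10.7% lower. Of 18 other solute carriers, 4 were called higher and 7 lower at 3m, with a median log2 fold change of -0.31 against -0.02 for all genes tested. The 2 largest falls were Slc38a2, a sodium-coupled carrier of small neutral amino acids, from 1529, 1917 and 1720 CPM at P3 to 122.7, 156 and 209 CPM at 3m (-3.51 ± 0.26), and Slc29a1, an equilibrative nucleoside carrier (-3.00 ± 0.27). The largest rise was that of Slc6a6, the taurine carrier, from 192, 116 and 123.4 CPM to 1185, 1027 and 1041 CPM (2.83 ± 0.21). Slc3a2, the heavy chain with which Slc7a5 forms a pair, fell from 1151, 987 and 843 CPM to 390, 350 and 399 CPM (-1.48 ± 0.20), and in astroglia it was at 1.12 ± 0.22, a difference between the cell types of -2.69 ± 0.21 (adjusted p = 2.41e-08). That astroglial call was lost without 3m replicate 1 (0.89).

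Of 5 other efflux pumps 4 were tested, 2 were called higher and 0 lower, with Abcc4 (MRP4) at 1.62 ± 0.23. Abcb1b, the near-identical paralog of Abcb1a, had 5 UMIs at 3m and 21 at P3. The endothelial sums held 1230114 UMIs at 3m and 19404404 at P3, so these raw counts are not levels and do not show a fall. Abcb1b was not tested, and how far reads that fit both genes were counted for either is uncertain. Genes of transcytosis and caveolae were called higher in 4 cases and lower in 1 of 10 tested. Cav1 rose from 112, 106 and 120 CPM to 313, 331 and 348 CPM (1.45 ± 0.17), and its caveolar partners Cav2, from 78.8, 80.3 and 102 CPM to 267, 249 and 275 CPM, and Cavin2 (1.47 ± 0.19) rose too. Lrp8, a receptor of reelin and apolipoprotein E, fell (-2.18 ± 0.27). Plvap, which forms the diaphragms of leaky vessels, had 0 UMIs at 3m and 44 at P3. Since the 3m sums were far smaller, these counts do not show a fall of Plvap. Junction genes were called higher in 1 of 12 tested cases and lower in 0, the called one being Ocln (occludin), which went from 65.1, 68.1 and 61.6 CPM to 190, 179 and 185 CPM (1.41 ± 0.17). Cldn5, the main claudin of the barrier, had a value of 0.34 ± 0.32 (adjusted p = 0.446), and its 3m libraries of 6539, 2432 and 2613 CPM overlapped those of P3. With no scaling 2 junction genes were called higher, and with cells of other-type markers left out 5 of 10 tested.

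**Figure D5:**
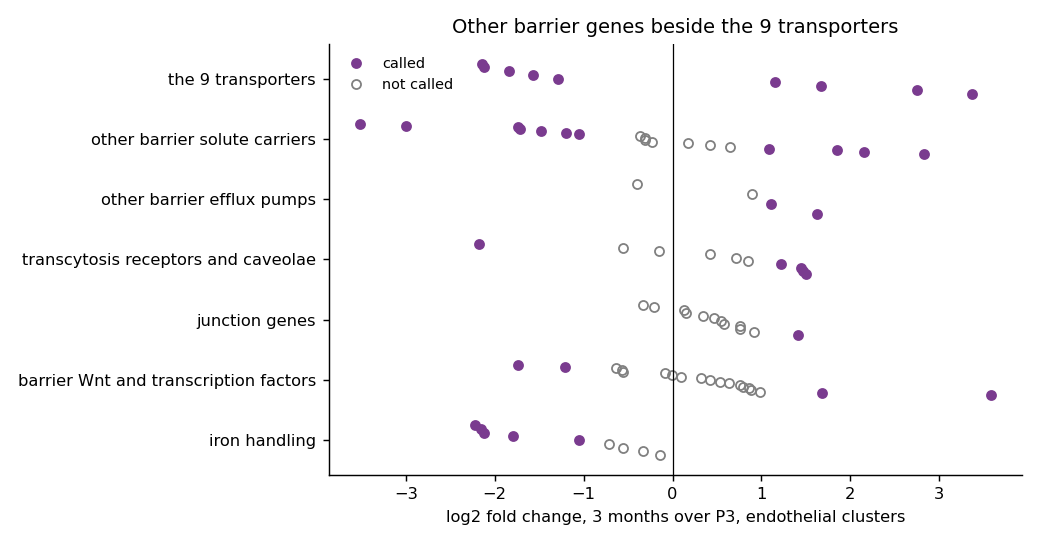
Log2 fold change of 3m over P3 in endothelial clusters for the 9 transporters and for 6 lists of other barrier genes, with a point per gene tested (filled where called). The carriers spread to both sides, 11 of the 12 junction genes were not called, and all 9 iron genes lie below 0 with 5 called.

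Of 19 genes of Wnt signalling and of transcription factors tied to the barrier, 2 were called higher and 2 lower. Under the alternatives run, 2 to 6 of this list were called higher and 1 to 2 lower. Reck, a co-receptor for Wnt7 ligands, rose from 5.65, 4.85 and 5.38 CPM to 76.5, 46.7 and 75.4 CPM (3.58 ± 0.27), and Lef1, which binds DNA with β-catenin, by 1.68 ± 0.18. Apcdd1, an inhibitor of Wnt signalling, fell by 1.74 on the log2 scale and the lipid-sensing receptor Ppard by 1.21. The call of Ppard was lost without P3 replicate 1 (-0.99) and with sums thinned to the smallest (-0.85). Of 9 iron handling genes, 0 were higher and 5 lower, with a median of -1.06. With cells of other-type markers left out, 3 of them could be tested and 1 was called. Fth1, the ferritin heavy chain that stores iron, had 2716, 4024 and 3640 CPM at 3m against 11765, 13056 and 18114 CPM at P3 (-2.15 ± 0.31). Trf, transferrin itself, was at -2.22 ± 0.37, and Steap3, the reductase that frees iron in endosomes, at -2.12 ± 0.36. Slc40a1, ferroportin, which exports iron to the brain side, and stands in the solute carrier list too, was at -1.06 ± 0.18. It was not called without P3 replicate 3 (-0.95), with no scaling (-0.96) or with cells of other-type markers left out (-0.51). As with Tfrc, the change of Trf (-4.18 ± 0.28), Fth1 (-3.22 ± 0.25) and Steap3 (-4.22 ± 0.35) was lower in endothelial cells than in astroglia, each called by the interaction term.

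Lists for the zones of the vascular tree were read because transporters differ between arteries, capillaries and veins. Of 8 arterial markers tested, 5 were called higher and 1 lower at 3m, led by Gkn3, which went from 0.282, 0.462 and 0.626 CPM to 655, 463 and 453 CPM (9.95 ± 0.31), with Bmx at 5.15 ± 0.35 and Sema3g at 3.19 ± 0.28. Of 6 capillary markers, which include Mfsd2a and Tfrc, 1 was higher and 2 lower, the latter being those 2. Of 5 venous markers tested, 1 was higher and 1 lower, with Vcam1 at 4.19 ± 0.24. All 5 tip cell markers tested were lower, led by Apln at 350 ± 16.8 CPM at P3 against 1 UMI at 3m. These counts stand beside 11.4% of all genes tested that were called higher and 10.7% lower, and they moved with the processing. Under the alternatives run, 1 to 6 arterial markers were called higher and 1 to 6 tip cell markers lower. How far zones and growth states account for the levels of the 9 transporters was not tested.

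Genes with the most similar profile were searched over 16 combinations of cell type and age with at least 20 cells, by Pearson's r of log2(CPM + 1). These profiles share libraries, so r is given as a description. For Slco1a4 they were Srarp (r = 0.991), Gata2 (0.984) and Cyyr1 (0.977), and for Abcb1a Gata2 (0.988), Srarp (0.983) and Ly6c1 (0.981). The closest to Slc38a5 were Vwf (0.963), Gm14207 (0.960) and Pglyrp1 (0.958), to Slc7a1 Cd34 (0.900), Cd93 (0.899) and Tie1 (0.898), and to Slc7a5 Ramp2 (0.918), N4bp3 (0.894) and Kank3 (0.890). Mfsd2a was nearest to Tnk2 (0.865), Cd320 (0.863) and Ptpn12 (0.858), Slc2a1 to Igf1r (0.882), Sorbs3 (0.850) and Sox13 (0.848), Tfrc to Ccdc85b (0.929), Map4k2 (0.898) and Hdac7 (0.886), and Abcg2 to Vat1 (0.889), Kctd10 (0.886) and Arpc3 (0.853). Among the 9 themselves, Slco1a4 and Abcb1a had the highest r (0.971) and Abcg2 and Slc2a1 the lowest (0.337).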

How the data were processed

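The 6 libraries of ACSA2-enriched striatal cells (3 at P3 and 3 at 3m) were analysed. The deposited table holds raw UMI counts, which the authors made with Cell Ranger on mm10 and merged without normalization. The authors removed cells below 500 detected genes or above 10% mitochondrial UMIs, clustered the rest with Seurat (version 3.1.1 in the submitters' processing notes), and their deposited cluster names were used. The same filter gave exactly the 14373 annotated cells of 16690 barcodes, and 2317 barcodes were left out. Doublets were not removed.

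UMIs were summed per library over END_17 (3m), END_7 and END_13 (P3) or 11 astroglial clusters. Sums were compared with edgeR 4.0.16 (R 4.3.3), with the quasi-likelihood test, TMM scaling, filterByExpr and Benjamini-Hochberg adjustment over all genes tested, two-sided. The standard error is the absolute log2 fold change divided by the square root of F, an approximation. DESeq2 1.42.0 was an alternative. On simulated counts the test called 70.0% of genes changed by 1.5 and 85.9% of those changed by 2 on the log2 scale in the endothelial comparison (10000 genes). The changed genes were drawn only from those above a minimum expected count, so these rates do not cover genes with low counts. The study's methods describe independent preparations from pooled animals, so p-values measure the spread between preparations, not between single animals. Counting intervals and floors cover counting error only.

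The 9 genes and all lists were chosen with earlier results of these data known. Named list genes are at most 4 per list, the called ones that changed most, if the age with more had 50 CPM or more on average and the ages did not overlap, and genes at 0 in an age. A gene that this rule names is not reported here. Replicate numbers of the 2 ages were not treated as pairs in the main fits. Same-number correlations of deviations were 0.25, 0.05 and 0.04 in endothelial sums and 0.21, 0.10 and 0.04 in astroglial sums. Replicate 1 of 3m correlated positively only with replicate 1 of P3. With P3 replicates 2 and 3 it had -0.11 and -0.19 in endothelial sums and -0.12 and -0.16 in astroglial sums. Deviations were taken from the mean of an age and cancel within it, so these negative values partly follow from the positive ones. Whether replicates 1 shared a condition was not tested. Gene positions are from GENCODE M21, and promoter windows from RefSeq.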

Additional observations from a re-analysis of the deposited data

Results flagged for a closer look

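The change with age differed between endothelial cells and astroglia for 4 of the 6 transporters tested in both, each by the interaction test within libraries (log2 difference, endothelial minus astroglial). The values were -4.96 for Mfsd2a, 4.94 for Abcg2, -3.03 for Tfrc and -1.19 for Slc2a1. Over all 12799 genes tested, 15.4% were called. The call of Slc2a1 was lost with no scaling beyond library totals (-0.83).

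Barcodes that the cell filter left out also held UMIs of the 9 genes, although no comparison used them. At 3m there were 1516 such UMIs in 1545 barcodes (273 CPM, against 511 CPM in the kept cells), and at P3 there were 376 in 772 barcodes (491 CPM, against 907 CPM in the kept cells).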

How the results depend on the processing

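In the endothelial comparison the direction of all 9 transporters held under each of the 19 alternatives run, and 8 of them were called in each. Slc2a1 was not called without 3m replicate 1 (0.65), without P3 replicate 3 (0.95) or, in an alternative chosen after seeing the data, without cells that had UMIs of 2 or more proliferation genes (0.96). Without one library at a time, the log2 fold changes ranged from 3.22 to 3.54 for Slco1a4, 2.58 to 2.80 for Abcb1a, 1.47 to 1.75 for Abcg2, 0.65 to 1.54 for Slc2a1, -2.61 to -1.67 for Mfsd2a, -2.39 to -1.95 for Slc38a5, -2.01 to -1.71 for Slc7a5, -1.75 to -1.47 for Slc7a1 and -1.63 to -1.08 for Tfrc. The 2290 called genes became 962 with sums thinned to the smallest and 535 with cells of other-type markers left out, where fewer genes passed the filter (4313 and 1909), and 1591 to 2310 without one library. The astroglial count of 4344 became 2720 with thinned sums and 3234 to 4257 without one library. The interaction count of 1971 became 1177 with thinned sums, 1164 with the stricter cell filter (over 1000 genes and under 5% mitochondrial UMIs) and 1444 to 2024 without one library. No scaling moved the share of called genes that were higher from 49.3% to 38.6% in astroglia.

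Uncalled interaction values changed sign for Slc7a1 (0.18) to -0.29 with thinned sums, -0.25 with the stricter filter, and -0.09, -0.05 and -0.10 without 3m replicate 1, 3m replicate 3 and P3 replicate 3, for Slc38a5 to -0.13 with thinned sums and for Abcb1a to -1.27 without P3 replicate 3, the last pair of genes having too few astroglial UMIs to compare. Without one library they ranged from -0.10 to 0.85 for Slc7a1 and from -1.27 to 5.68 for Abcb1a. The cause was not tested. Differences in the share of cells (percentage points, 3m minus P3) moved when cells were thinned to 2000 UMIs, to 65.7 for Slco1a4, 55.3 for Abcb1a, -39.0 for Mfsd2a, -37.6 for Slc7a1, -41.2 for Slc7a5, -51.5 for Slc38a5 and -26.5 for Tfrc. Without thinning they were 42.8 for Slco1a4, 27.7 for Abcb1a, 17.8 for Abcg2, 8.84 for Slc2a1 (23.5 when thinned to 1000 UMIs), -52.4 for Slc38a5 and -33.1 for Tfrc, and with END_7 alone -18.4 for Tfrc. No difference changed sign. Without one library they ranged from 53.3 to 61.8 for Slco1a4, 39.3 to 46.6 for Abcb1a, 28.0 to 36.9 for Abcg2, 14.8 to 31.4 for Slc2a1, -27.4 to -13.5 for Mfsd2a, -31.3 to -23.4 for Slc7a1, -32.5 to -26.0 for Slc7a5, -41.2 to -37.9 for Slc38a5 and -16.0 to -11.5 for Tfrc.

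With the replicate block, 2312, 4420 and 1991 genes were called in the endothelial, astroglial and interaction fits. Not every library correlated best with its own number: 3m replicate 2 did so with P3 replicate 3 (0.13). The 3m sums were the shallower ones, so low genes of 3m limit the precision. For the named list genes, 745 values under alternatives kept their side of the threshold, 20 lost the call and none reversed.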

Other observations

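In replicate 1 of both ages Mfsd2a and Slc2a1 were higher than in replicates 2 and 3, in endothelial clusters and in astroglia alike. Slc2a1 in endothelial clusters was at 1661 against 693 and 859 CPM at 3m and at 690 against 381 and 300 CPM at P3, and in astroglia at 170 against 68.9 and 76.7 CPM and at 31.8 against 18.5 and 22.0 CPM. Mfsd2a in astroglia was at 204 against 96.0 and 105 CPM at 3m and at 35.8 against 16.4 and 17.9 CPM at P3. The 3m replicate 1 endothelial cells had a median of 5.84% mitochondrial UMIs, against 2.97% and 3.02% in the other two 3m libraries.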
